A study of Homo sapiens with 3 samples.

Results

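The genes described here encode the enzymes and regulators of cholesterol and fatty acid synthesis in PC-3 cells, an established human prostate cancer cell line. They were taken by name from a list of 36 genes, of which 21 belong to the sterol branch and 15 to the fatty acid branch. All 36 had a row in the tables, among 18331 genes with a row in any library, and all 36 passed the filter on low counts, among 14016 genes tested. Their estimated counts ran from 44 to 1790 per library.

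Both branches start from acetyl-CoA in the cytosol. The sterol branch condenses it to mevalonate, makes isoprenoid units, joins them to squalene and folds and trims that chain into cholesterol. The fatty acid branch carboxylates acetyl-CoA to malonyl-CoA, builds palmitate from it and then lengthens, desaturates and activates the product. The transcription factors encoded by SREBF1 and SREBF2 drive both branches, SREBF1 mainly the fatty acid genes and SREBF2 mainly the sterol genes. When sterols are scarce, SCAP escorts their precursors to the Golgi for cleavage, and INSIG1 holds them back when sterols are plentiful. Prostate cancer cells are known for high fatty acid synthase.

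Messenger RNA was sequenced from 3 libraries of PC-3 cells, each taken 7 days after lentivirus carrying a short hairpin RNA (shRNA) was given. Of these, 2 carry the label KMT2D shRNA with the numbers 1 and 2 and the genotype KMT2D deficiency. The remaining library, Control shRNA, has the genotype KMT2D normal. The labels name neither the hairpin sequences nor separate cultures, so p-values measure the spread between these libraries, which may be technical. In edgeR that spread was pooled across genes, with 1 residual degree of freedom against a prior of 45.7. The SE and p-value of a gene therefore rest mostly on other genes and not on its own 2 labelled libraries. The control has no replicate and no SD.

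Library totals were 5157550 and 5123817 estimated counts for the libraries labelled KMT2D shRNA and 5559504 for the control. KMT2D, the gene the hairpins were named for, was at 107 and 138 CPM (read counts scaled to a common library size with TMM) in the labelled libraries and at 100.1 CPM in the control, so its RNA was not lower in either (log2 fold change 0.29, adjusted p = 0.227 in edgeR). With the trend on transcript length described below removed, the value for this long transcript turned to -0.67 (adjusted p = 0.00899 in edgeR), and with GC content removed as well it was -0.56 and did not pass (adjusted p = 0.0682 in edgeR), so its direction depends on these steps. Directions below are therefore those of the libraries labelled KMT2D shRNA. The sample labels name PC-3 cells, while the series' design text also calls the profiles retinal. Of retinal genes CRX was at 11.9 and 11.2 CPM in the labelled libraries and 20.2 CPM in the control, and RCVRN had no row. Summed epithelial markers were at 836 and 881 CPM against 1432 CPM, a difference carried by the keratins KRT8, KRT18 and KRT19, which fell. EPCAM was at 19.3 and 16.55 against 24.5 CPM, and CDH1 was at 17.8 and 18.5 against 12.7 CPM. Neither EPCAM nor CDH1 passed (adjusted p = 0.127 and 0.128 in edgeR). With the length trend removed only KRT18 of these keratins passed (adjusted p = 0.0141 in edgeR). With GC content removed as well, KRT8, KRT18 and KRT19 did not pass (adjusted p = 0.147, 0.05002 and 0.146 in edgeR). Of prostate luminal genes TMPRSS2 was at 53.7 and 41.0 CPM against 35.8 CPM, and KLK3 and KLK2 had no row. Fibroblast markers summed to 386 and 401 CPM against 409 CPM, most of it COL1A1, and the endothelial marker PECAM1 was at 19.3 and 18.9 against 20.3 CPM, with VWF and CDH5 without a row. Leukocyte markers summed to 69.8 and 77.7 CPM against 184 CPM, of which CD68, a gene other cells express too, was 45.9 and 55.8 against 149.5 CPM. LYZ was at 22.55 and 19.7 against 32.9 CPM and fell (adjusted p = 0.0189 in edgeR). Its call was lost with the length trend removed (adjusted p = 0.284 in edgeR). PTPRC, the general leukocyte marker, was at 1.34 and 2.17 against 1.27 CPM, and CD3E and MS4A1 had no row. The part of these cell type markers in the results was not tested. In bulk RNA, fewer cells of a type and less RNA per cell cannot be told apart. The control stood apart in its interferon response: 8 of 8 interferon-induced genes were lower in the labelled libraries, with a summed level of 344 and 340.1 CPM against 10310 CPM in the control. The part of that difference in the lipid genes was not tested. Fold change also followed transcript length over all tested genes (Spearman coefficients across genes of 0.456 and 0.46 in the labelled libraries, a description, since genes are not independent), and lengths are therefore given beside the genes.

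The fatty acid branch was higher in the libraries labelled KMT2D shRNA, and the sterol branch was mixed. Of 15 fatty acid genes 9 rose and 1 fell in edgeR's quasi-likelihood test at a Benjamini-Hochberg adjusted p under 0.05, and the branch median was 0.60 (log2 fold change). Of 21 sterol genes 2 rose and 3 fell, with a median of -0.11. Over all tested genes 16.5% rose and 14.5% fell, with a median of -0.006. Of the fatty acid genes 12 lay above the control in both labelled libraries and 1 lay below it in both. Of the sterol genes 6 lay above the control in both and 11 below it in both, where 41.5% of all tested genes lay above and 42.8% below. Of the 15 genes of both branches that passed, DESeq2 called 4 (ACACA, ACLY, FADS1 and FASN), and limma on log2(FPKM + 1) called ACACA alone.

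**Figure D1:**
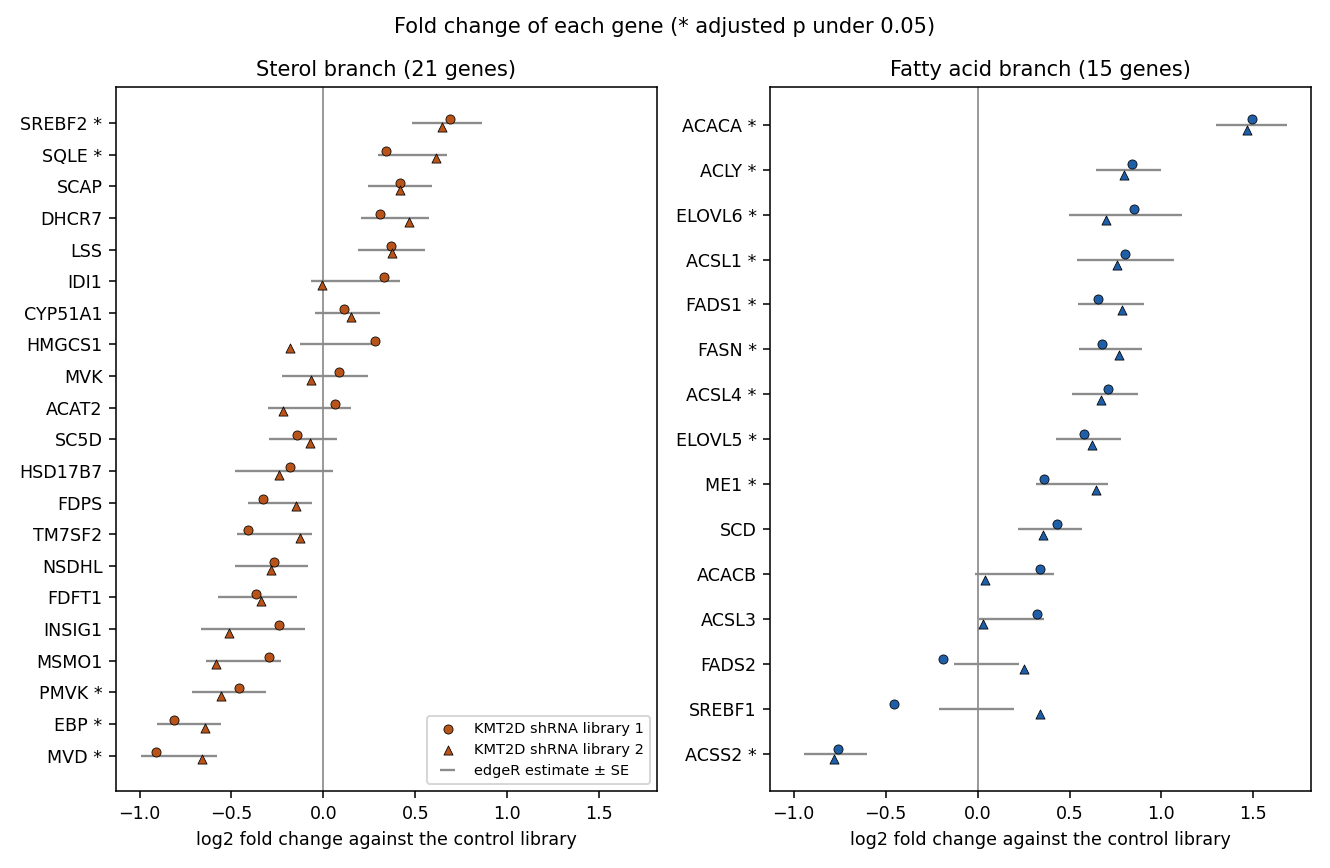
Log2 fold change of each gene against the control library, with the sterol branch on the left and the fatty acid branch on the right; circles and triangles are the libraries labelled KMT2D shRNA 1 and 2, grey bars the edgeR estimate ± SE, and an asterisk an adjusted p under 0.05. The fatty acid genes reach from -0.77 for ACSS2 to 1.49 for ACACA, and the sterol genes from -0.79 for MVD to 0.67 for SREBF2.

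Genes for the supply of acetyl-CoA moved in opposite directions. ACLY (Entrez gene 47), which splits exported citrate into cytosolic acetyl-CoA, was at 219.8 and 214 CPM in labelled libraries 1 and 2 and at 123 CPM in the control. Both labelled libraries lay well above the control, and ACLY rose by 0.82 log2 units (SE 0.18, adjusted p = 0.000322 in edgeR). ACSS2 (Entrez gene 55902), which makes acetyl-CoA from acetate, was at 59.8 and 59.1 CPM against 102 CPM in the control. Here the control was the high library, and ACSS2 fell by 0.77 (SE 0.17, adjusted p = 0.000481 in edgeR). It was the only fatty acid gene that fell in this test. ME1, the cytosolic malic enzyme that yields NADPH for lipid synthesis, was at 47.2 and 57.5 CPM against 36.7 CPM and rose by 0.51 (SE 0.20, adjusted p = 0.0424 in edgeR).

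ACACA and FASN, which act in succession to make palmitate, both rose. ACACA (Entrez gene 31), the acetyl-CoA carboxylase that makes malonyl-CoA for synthesis, was at 108 and 106 CPM against 38.1 CPM in the control. This was a 2.80-fold difference, 1.49 log2 units (SE 0.19, adjusted p = 3.19e-08 in edgeR), and the largest among the 36 genes. Its paralog ACACB, whose malonyl-CoA restrains mitochondrial import of fatty acids, was at 35.9 and 29.2 CPM against 28.3 CPM and did not pass (log2 fold change 0.20, SE 0.21, adjusted p = 0.509 in edgeR). FASN (Entrez gene 2194), the synthase that builds palmitate, was at 331 and 353 CPM against 207 CPM, and both labelled libraries again exceeded the control. FASN rose by 0.72 log2 units (SE 0.17, adjusted p = 0.00104 in edgeR).

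Among elongases and desaturases 3 of 5 genes rose. Over all tested genes 16.5% rose, and 26.5% of those within the length range of the fatty acid branch. ELOVL5, which lengthens polyunsaturated fatty acids, was at 178 and 183 CPM against 119 CPM and rose by 0.60 log2 units (SE 0.18, adjusted p = 0.00698 in edgeR). ELOVL6, which lengthens palmitate to stearate, stood on 77 and 67 counts against 44 in the control. It rose by 0.80, with the widest error of the fatty acid genes (SE 0.31, adjusted p = 0.0409 in edgeR). FADS1, the delta-5 desaturase, was at 126 and 138 CPM against 80.1 CPM and rose by 0.72 (SE 0.18, adjusted p = 0.00166 in edgeR). Its neighbour in the pathway FADS2, the delta-6 desaturase, was at 241 and 327 CPM with the control between them at 275 CPM. The labelled libraries thus lay on either side of the control, and the log2 fold change of FADS2 was 0.05 (SE 0.18, adjusted p = 0.871 in edgeR). SCD, which makes oleate from stearate, was at 194 and 184 CPM against 144 CPM in the control, above it in both libraries without passing (log2 fold change 0.40, SE 0.17, adjusted p = 0.0773 in edgeR).

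The acyl-CoA synthetases activate free fatty acids for use in lipids or oxidation. ACSL4, which prefers arachidonate, was at 116 and 113 CPM against 70.8 CPM and rose by 0.69 log2 units (SE 0.18, adjusted p = 0.00257 in edgeR). ACSL1 was at 19.3 and 18.7 CPM against 10.9 CPM and rose by 0.80 (SE 0.26, adjusted p = 0.0171 in edgeR). ACSL3, a synthetase of lipid droplets and the endoplasmic reticulum, did not pass. Its levels were 176 and 144 CPM against 141 CPM, a log2 fold change of 0.18 (SE 0.18, adjusted p = 0.458 in edgeR).

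**Figure D2:**
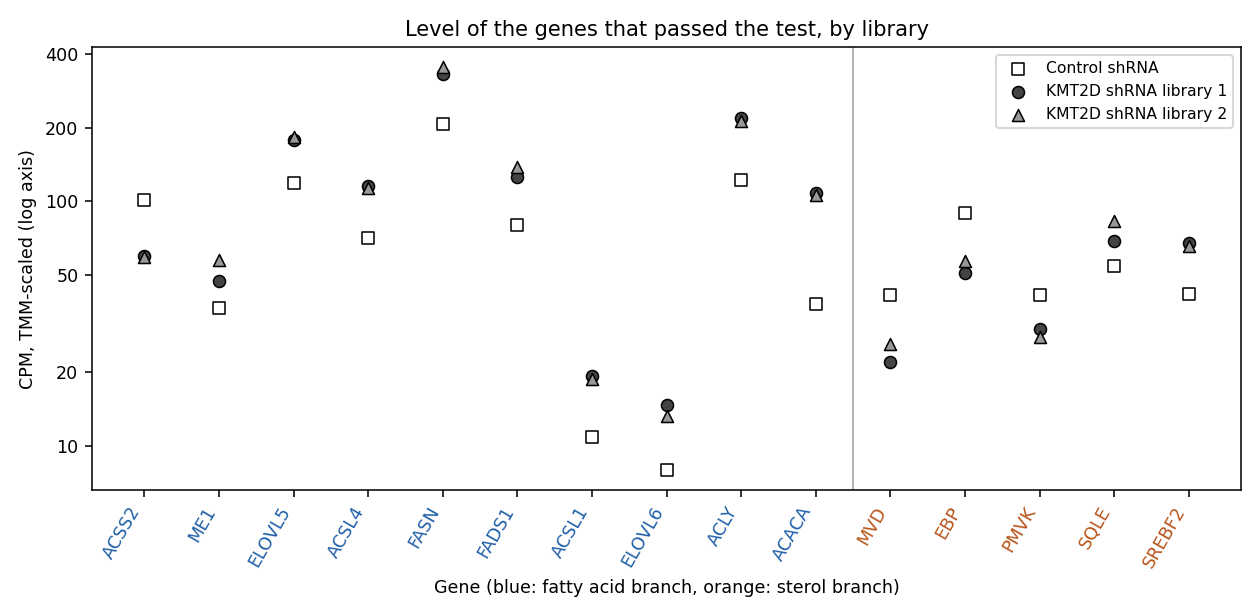
TMM-scaled CPM on a log axis for the 15 genes that passed the test, with the fatty acid branch left of the line and the sterol branch right of it; open squares are the control, circles and triangles the libraries labelled KMT2D shRNA. The labelled libraries lie on the same side of the control for each of these genes, below it for ACSS2, MVD, EBP and PMVK and above it for the other 11. The genes were chosen by a test on these same libraries, so that agreement is no separate support.

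In the mevalonate part of the sterol branch PMVK and MVD, which act in succession, were lower, and no other gene passed. MVD (Entrez gene 4597), which decarboxylates mevalonate diphosphate to isopentenyl diphosphate, was at 21.98 and 26.2 CPM against 41.6 CPM in the control. Both labelled libraries were lower, and MVD fell by 0.79 log2 units (SE 0.21, adjusted p = 0.00277 in edgeR). PMVK, the kinase just before it, was at 30.01 and 28.0 CPM against 41.4 CPM and fell by 0.51 (SE 0.20), close to the threshold (adjusted p = 0.0469 in edgeR). HMGCS1, which forms the hydroxymethylglutaryl-CoA that is reduced to mevalonate, was at 61.9 and 44.7 CPM around a control level of 50.9 CPM. The labelled libraries of HMGCS1 differed from each other by more than counting error (ratio of library 2 to library 1 of 0.722, 95% exact interval 0.607 to 0.859). ACAT2, MVK and IDI1 also had the control between the labelled libraries, with log2 fold changes from -0.07 to 0.17. FDPS, which makes farnesyl diphosphate, was at 94.2 and 107 CPM against 118 CPM and did not pass (log2 fold change -0.24, SE 0.17, adjusted p = 0.315 in edgeR).

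From squalene to cholesterol 1 gene rose and 1 fell. SQLE, the squalene epoxidase at the first oxygenation, was at 68.8 and 83.4 CPM against 54.3 CPM and rose by 0.49 log2 units (SE 0.19, adjusted p = 0.0417 in edgeR). EBP (Entrez gene 10682), the sterol isomerase late in the path, was at 50.8 and 57.2 CPM against 89.6 CPM and fell by 0.73 (SE 0.18, adjusted p = 0.00115 in edgeR). No other gene of this stretch passed. LSS, which closes the sterol rings, and DHCR7, which performs a late reduction, were above the control in both libraries, with log2 fold changes of 0.37 and 0.39 (adjusted p = 0.119 and 0.101 in edgeR). FDFT1 (squalene synthase), MSMO1, NSDHL and HSD17B7 (removal of the methyl groups), TM7SF2 (a sterol reductase) and SC5D (a desaturase) were below the control in both, with log2 fold changes from -0.44 for MSMO1 to -0.11 for SC5D. CYP51A1, which takes off the first methyl group of lanosterol, was close to the control at 82.2 and 84.4 CPM against 75.9 CPM. Estimated counts were not whole numbers in at least 1 library for 8 of the 36 genes (FDPS, SC5D, CYP51A1, HSD17B7, MSMO1, ACACA, ACACB and FADS1), so these counts are uncertain to the extent that reads could belong to more than 1 gene.

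The regulators did not move as a group. SREBF2 (Entrez gene 6721) was at 67.5 and 65.6 CPM against 41.8 CPM in the control, with both labelled libraries above it. SREBF2 rose by 0.67 log2 units (SE 0.19, adjusted p = 0.00518 in edgeR). SCAP, the escort protein, was at 160.2 CPM in both labelled libraries against 119.9 CPM and did not pass (log2 fold change 0.42, SE 0.17, adjusted p = 0.0623 in edgeR). INSIG1, the retention protein and itself a target of the SREBF products, stood on 64 and 51 counts against 80 and was at -0.38 (SE 0.28, adjusted p = 0.323 in edgeR). SREBF1 was at 47.8 CPM in labelled library 1 and 83.0 CPM in library 2, on either side of the control at 65.6 CPM. Its ratio of library 2 to library 1 was 1.74 (95% exact interval 1.48 to 2.04, counting error only), the widest gap between the labelled libraries among the 36 genes, and its log2 fold change was -0.01 (SE 0.20, adjusted p = 0.987 in edgeR). The 9 fatty acid enzymes that rose lay above the control in both labelled libraries, which the test that chose them favours. Their relation to the level of SREBF1 was not tested.

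Promoter sequences were read for 32 of the 36 genes from RefSeq (GRCh38.p14), and the 250 bases before each start were searched on both strands for motifs of the factors known to act on these genes. Shown here are stretches outside every annotated UTR from SREBF2 and ACLY, which rose, and MVD and ACSS2, which fell, with matches in capitals to TCACNCCAC or TCANNCCA (forms of the sterol regulatory element, the shorter lying within the longer) and to CCAAT, the core of the NF-Y site, which reads ATTGG on the other strand. The stretches are SREBF2 at chr22:41832855-41833054 on the plus strand, ACLY at chr17:41919073-41919272 on the minus strand, MVD at chr16:88663149-88663341 on the minus strand and ACSS2 at chr20:34874739-34874938 on the plus strand.
SREBF2: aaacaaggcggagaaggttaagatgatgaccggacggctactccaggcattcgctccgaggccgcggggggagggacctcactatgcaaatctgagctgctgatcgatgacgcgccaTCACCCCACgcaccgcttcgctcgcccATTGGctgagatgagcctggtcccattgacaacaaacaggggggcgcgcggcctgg
ACLY: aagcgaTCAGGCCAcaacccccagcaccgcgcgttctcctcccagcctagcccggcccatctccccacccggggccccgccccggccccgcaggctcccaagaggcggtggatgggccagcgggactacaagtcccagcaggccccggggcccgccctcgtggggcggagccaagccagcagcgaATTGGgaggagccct
MVD: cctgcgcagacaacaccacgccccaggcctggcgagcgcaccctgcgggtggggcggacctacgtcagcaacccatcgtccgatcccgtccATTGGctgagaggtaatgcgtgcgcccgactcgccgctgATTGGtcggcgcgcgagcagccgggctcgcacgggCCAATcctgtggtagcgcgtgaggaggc
ACSS2: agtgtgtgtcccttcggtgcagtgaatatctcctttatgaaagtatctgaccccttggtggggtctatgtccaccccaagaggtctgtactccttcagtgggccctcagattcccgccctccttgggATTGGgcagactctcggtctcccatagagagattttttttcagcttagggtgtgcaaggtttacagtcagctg

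SREBF2 was the only sterol gene with TCACNCCAC in the searched bases, at 133 to 125 bases before the start, and a CCAAT core followed it at 106 to 102 bases before. In the fatty acid branch ACSL1 held TCACNCCAC, in 1 of its alternative promoters. MVD held 3 CCAAT cores and neither form of the sterol motif. CCAAT was found in 15 of 18 sterol genes and 8 of 14 fatty acid genes with a promoter read. Counted by promoter, it was in 57.4% of the 47 promoters of these genes and in 32.0% of all 35097 promoters, and TCANNCCA in 19.1% and 11.5%. GGGCGG, the Sp1 box, was in 80.9% and 42.6%, and CACGTG, the E-box, in 10.6% and 6.34%. Some promoters of the same gene overlap, as those of ACLY and of SC5D do, so a site can be counted more than once. Shares by gene were not computed over all promoters, so the counts by gene have no background. CCAAT was held by SREBF2, ACACA, ACLY, ELOVL5 and ACSL1, which rose, and by MVD, EBP and ACSS2, which fell. It was not found for ELOVL6, ACSL4, ME1 and FADS1, which rose, or for PMVK, which fell. SQLE and FASN had no promoter read. For ACACA, ACSL1 and ACSS2 only some of the alternative promoters held it.

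Transcript length differed between the branches and moved with the result. The sterol genes had a median length of 2150 bases and the fatty acid genes of 4432 bases, against 2962 bases over all tested genes. Among all tested genes within the length range of the fatty acid branch, 26.5% rose and 5.79% fell, and 9 of 15 fatty acid genes (60%) rose. Within the length range of the sterol branch 14.4% rose and 12.7% fell, and 2 of 21 sterol genes (9.52%) rose and 3 (14.3%) fell. Within the range both branches share, 2966 to 6953 bases, 7 of 12 fatty acid genes and 2 of 7 sterol genes rose, where 23.1% of all tested genes did. In that range 1 fatty acid gene and no sterol gene fell, where 6.17% of all tested genes did. The 14 sterol genes shorter than every fatty acid gene included the 3 that fell and none that rose.

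**Figure D3:**
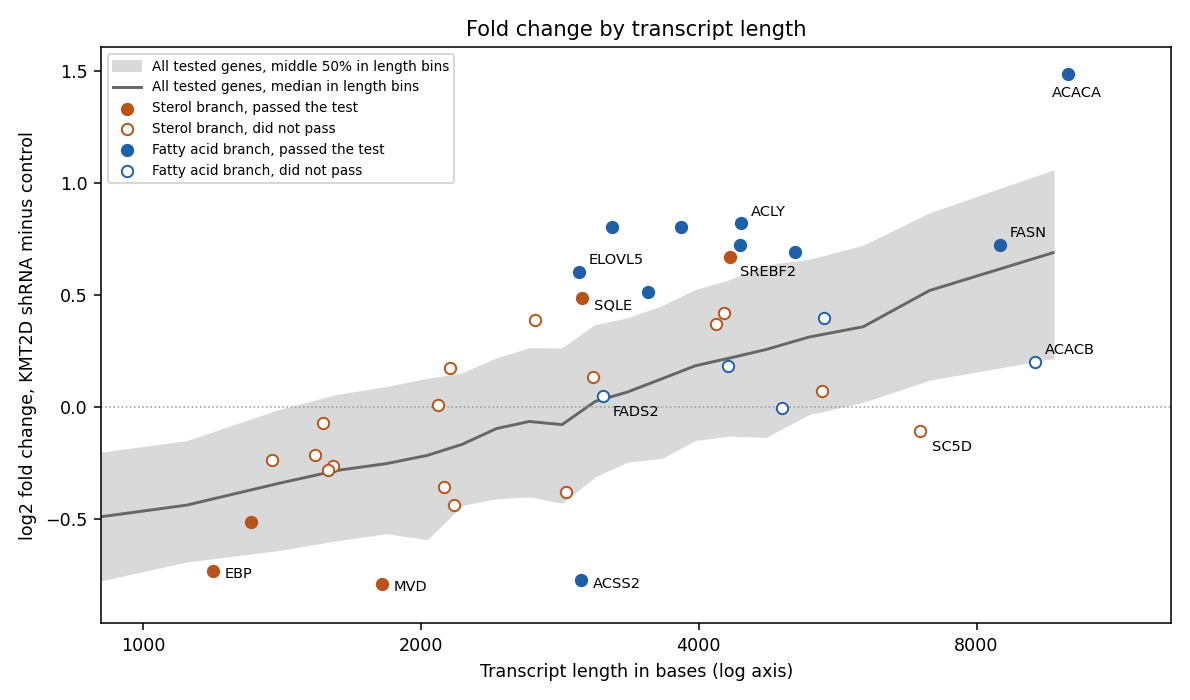
Log2 fold change of the labelled libraries over the control against transcript length on a log axis; the grey line and band are the median and middle 50% of all tested genes in 20 length bins, and filled points passed the test. ACLY and ELOVL5 are among the points above the band at their lengths, ACSS2 and SC5D are among those below it, and FASN lies within it. ACACA lies past the right end of the band and higher than its upper edge there.

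Genes of nearly equal length still differed. At lengths of 2966, 2983 and 2989 bases, ELOVL5 rose by 0.60, ACSS2 fell by 0.77 and SQLE rose by 0.49 on the log2 scale, while the 200 tested genes nearest in length to each had medians of -0.05, -0.06 and -0.05. ELOVL5 stood at percentiles 85.5 and 87 of its length neighbours in labelled libraries 1 and 2, ACSS2 at 9 and 10, and SQLE at 76.5 and 86.5. At lengths of 4305 bases for ACSL3, 4325 for SREBF2, 4432 for FADS1 and 4441 for ACLY, the log2 fold changes were 0.18, 0.67, 0.72 and 0.82 against a median of 0.22 for the length neighbours of ACSL3. LSS and SCAP, slightly shorter at 4178 and 4255 bases, were at 0.37 and 0.42 and did not pass. ACACA stood at percentile 91 in both libraries among genes of 9202 to 10940 bases. FASN, of 8481 bases, stood at percentiles 60.5 and 68, so its rise was near that of genes of its length. SC5D, of 6953 bases, lay at percentiles 12 and 14, where genes of its length had a median log2 fold change of 0.56.

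With the trend on length removed from the fit, 8.72% of all tested genes rose and 9.27% fell. Of the 15 calls among the 36 genes 5 were kept: ACACA at 0.84 (adjusted p = 0.00162 in edgeR), ELOVL5 at 0.61 (0.0139), ACLY at 0.60 (0.0152) and FADS1 at 0.50 (0.0453) rose, and ACSS2 fell by 0.77 (0.00156). SC5D, not called before, fell by 0.56 (adjusted p = 0.0282 in edgeR). The calls of FASN (log2 fold change 0.17, adjusted p = 0.539), SREBF2 (0.46, 0.0801), SQLE (0.48, 0.0666), MVD (-0.56, 0.0578), EBP (-0.35, 0.172), PMVK (-0.16, 0.62), ACSL1 (0.66, 0.0786), ACSL4 (0.40, 0.114), ELOVL6 (0.76, 0.083) and ME1 (0.42, 0.141) were lost. The median of the fatty acid branch was then 0.40, and that of the sterol branch was 0.079, on the other side of 0. With GC content removed as well, 5.56% of all tested genes rose and 6.12% fell, the same 5 calls and that of SC5D held, and the branch medians were 0.32 and 0.021.

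**Figure D4:**
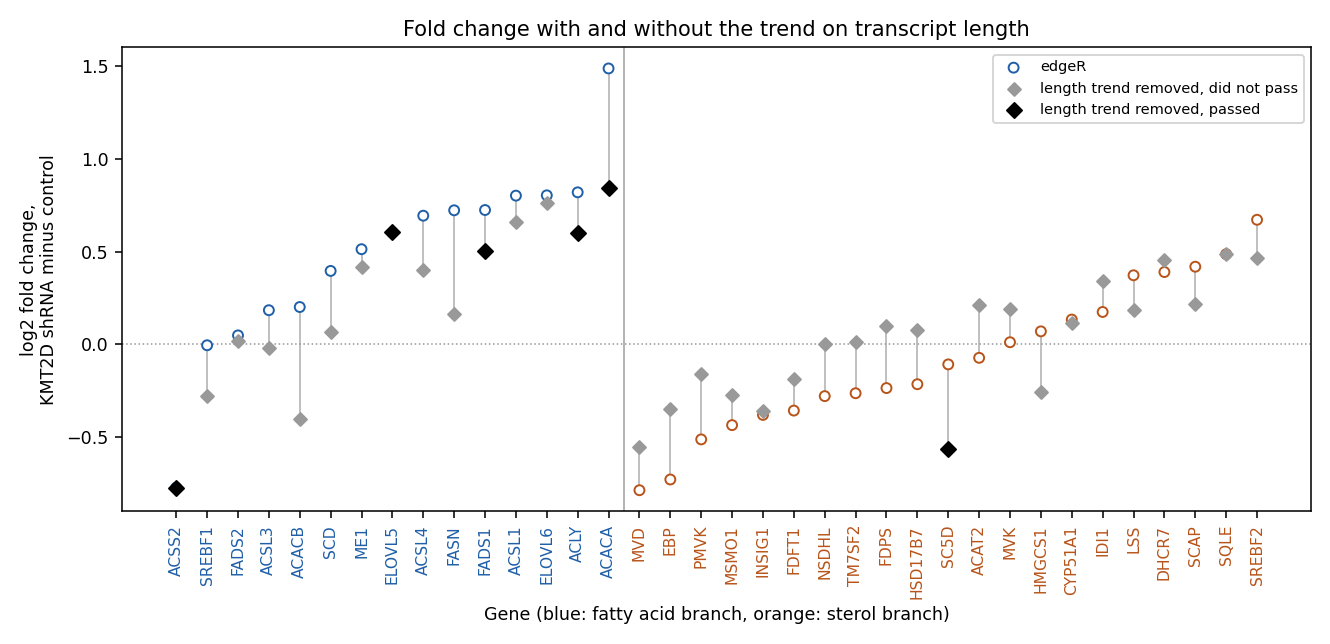
Log2 fold change of each gene from edgeR (open circles) and with the trend on transcript length removed (diamonds, black where the adjusted p was under 0.05), fatty acid branch left of the line and sterol branch right. ACACA, ACLY, FADS1 and ELOVL5 stay above 0 and ACSS2 and SC5D lie below it among the black diamonds, while FASN moves from 0.72 to 0.17.

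Levels between genes were compared on the authors' FPKM, which divides by length. In the control library FDPS (87.8 FPKM), FADS2 (85.9) and EBP (75.4) were highest and ELOVL6 (2.47), ACSL1 (2.80) and ACACB (2.99) lowest. The control has no replicate to set the order of FDPS and FADS2 against, and in both labelled libraries FADS2 (77.4 and 102 FPKM) lay above FDPS (70.4 and 75.7 FPKM). ACACA, at 3.60 FPKM, ranked 33 of 36 in the control and 26 by its mean of 10.7 ± 0.403 FPKM (SD, n = 2) in the labelled libraries. ACSS2 went from rank 5 at 33.5 FPKM to rank 18 at 19.9 ± 0.431 FPKM (SD, n = 2). Summed over the 14 fatty acid enzymes, FPKM was 414 and 427 in the labelled libraries and 322 in the control, and over the 18 sterol enzymes 374 and 378 against 434.

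Of 75 other genes of lipid synthesis and handling, grouped in 6 lists chosen for this pathway, 70 were tested, 7 rose and 10 fell (median log2 fold change 0.04). That is 10% higher and 14.3% lower, against 16.5% and 14.5% over all tested genes. Among regulators of SREBF processing and their partners 2 of 11 rose and 1 fell: ERLIN1, of the ER membrane complex that acts on INSIG and the reductase of the pathway, rose by 0.66, FAF2, of the same degradation system, rose by 0.55, and NR1H3, the sterol-sensing receptor LXR alpha, fell by 1.16 on the log2 scale. NR1H3 stood on 39 and 36 counts against 90 in the control (adjusted p = 0.00217 in edgeR). CH25H, an interferon-induced enzyme whose product suppresses SREBF processing, had 0 counts in both labelled libraries and 1 in the control and was not tested. Of 8 tested other sterol and isoprenoid enzymes EBPL alone fell (-0.59, adjusted p = 0.03 in edgeR), and the median was -0.20. The calls of FAF2 and EBPL did not hold once length was adjusted for (adjusted p = 0.206 and 0.666 in edgeR).

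Sterol uptake, export and storage held 2 genes of 11 that rose and 1 that fell, where 16.5% of all tested genes rose and 14.5% fell. NPC1, which exports cholesterol from lysosomes, was at 303 and 282 CPM against 165 CPM and rose by 0.83 log2 units (SE 0.17, adjusted p = 0.00024 in edgeR), or by 0.56 after length adjustment (adjusted p = 0.0208 in edgeR). NCEH1, a cholesteryl ester hydrolase, rose by 0.48, and NPC2, the soluble partner of NPC1, fell by 0.50, and neither passed after length adjustment (adjusted p = 0.282 and 0.913 in edgeR). Among other genes of elongation, desaturation and activation 2 of 18 rose and 3 fell. HACD2, a dehydratase of the elongation cycle, was at 24.3 and 19.3 CPM against 6.36 CPM and rose by 1.77 (SE 0.29, adjusted p = 4.9e-06 in edgeR), with only 35 counts in the control. HACD3 of the same cycle rose by 0.47 and did not pass after length adjustment (adjusted p = 0.0853 in edgeR). ELOVL7 fell by 1.12, the mitochondrial synthase OXSM by 0.90 and MID1IP1, which promotes polymerization of acetyl-CoA carboxylase, by 0.65 on the log2 scale. OXSM did not pass after length adjustment (adjusted p = 0.143 in edgeR). With length and GC content both removed, HACD2 still passed (adjusted p = 0.00305 in edgeR). NPC1 (0.0576), ERLIN1 (0.129), NR1H3 (0.0853), ELOVL7 (0.0617) and MID1IP1 (0.118) did not, by the same adjusted p. SLC25A1, of the list that holds HACD2, was not called at first (log2 fold change 0.46, adjusted p = 0.0569 in edgeR). It rose by 0.74 after length adjustment and by 0.98 with both removed (adjusted p = 0.00561 and 0.0126 in edgeR).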

How the data were processed

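The authors deposited 1 table per library listing genes by Entrez identifier. Expected counts are estimated reads per gene, not normalized, per the file headers, and 68.0%, 67.8% and 68.0% of them were whole. FPKM, which the authors deposited beside them, is scaled by length and library total. At least 95.3% of values per library were recomputed within 3% plus a small fixed allowance. The length in bases, deposited too, is another column of the file headers and was averaged over libraries. HISAT, Bowtie2 and the build hg19 are named in the submitters' processing notes. The counting tool and strand setting are not given in the sources used. A gene with no row in a library was taken as 0.

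Names came from RefSeq (99.5% of identifiers matched). Counts were rounded and tested with edgeR 4.0.16 in R 4.3.3 (default filter, TMM, quasi-likelihood F test on group, Benjamini-Hochberg over 14016 genes, threshold 0.05, 1 residual degree of freedom), with SE derived from F. Log2 values per library used a prior count of 2. The length trend was a loess fit (span 0.5) of log2 CPM on log2 length, removed as an offset; GC content came from GENCODE transcripts for 97.8% of tested genes. Alternatives were other scalings and filters, DESeq2 1.42.0, limma 3.58.1 on log2(FPKM + 1) and log2(FPKM + 0.1), and leaving out each labelled library. The fits were tested on simulated data. The members and lists were chosen with earlier results of these data known. All members are named, and of other lists up to 3 genes past the threshold each way by size, with exceptions chosen after values were seen (CH25H, SLC25A1 and DGAT1). Intervals are exact conditional binomial ones and cover counting error only. Some cell type markers are not reported here.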

Additional observations from a re-analysis of the deposited data

How the results depend on the processing

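No paired analysis was possible because the control group has 1 library. All counts are those of the 36 genes and of the 70 tested other genes, and no call changed sign among the 36. Against 11 members that rose and 4 that fell, the counts were 5 and 2 without a filter on low counts, 4 and 0 by DESeq2 (7 and 2 at an unadjusted p under 0.05), 4 and 2 with the length trend removed, 4 and 2 with the length and GC trends removed, 1 and 0 by limma on log2(FPKM + 1) (11 and 4 unadjusted), and 0 and 0 by limma on log2(FPKM + 0.1) (9 and 3 unadjusted) and on unfiltered FPKM (11 and 5 unadjusted). DESeq2 kept FASN, ACACA, ACLY and FADS1. In edgeR the counts were 11 and 3 with DESeq2-type size factors. They were 8 and 3 with library totals, and 8 and 3 at a mean of 5 CPM or more. The call of PMVK was lost in each of these settings. Those of SQLE, ELOVL6 and ME1 were lost with library totals and at that mean CPM. For the other genes, with 7 higher and 10 lower, the counts were 3 and 5 without a filter and 3 and 3 by DESeq2. By limma in the same order they were 1 and 2 and then 0 and 0 in both other settings. With both trends removed they were 3 and 1. Unadjusted, limma had 5 and 11 at the smaller pseudocount and 9 and 9 unfiltered. Over all genes, calls were 1048 higher and 849 lower without a filter, 723 and 455 by DESeq2, 516 and 477 by limma on log2(FPKM + 1), 1 and 23 at the smaller pseudocount and 0 and 0 of 18331 genes unfiltered (2299 and 2277 unadjusted), so limma called few genes of any kind in those last settings.

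The sterol median of -0.11 was -0.10 with DESeq2-type size factors, -0.092 with library totals, -0.12 at a mean of 5 CPM or more, -0.078, -0.088 and -0.078 by limma, 0.079 with the length trend removed and 0.021 with both removed; leaving out a labelled library gave -0.15 to -0.14. The fatty acid median of 0.60 was 0.40 and 0.32 with those trends removed, and 0.59 to 0.65 without a labelled library. The cause of these moves was not tested. KMT2D turned from 0.29 to -0.67 after length adjustment (adjusted p = 0.00899 in edgeR) and -0.56 with both trends removed (adjusted p = 0.0682 in edgeR). With 1 library left per group no test could be made, so leaving out a library gives values only. Depth limits ELOVL6 and INSIG1 most, which have the fewest counts and the widest errors of the 36.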

Other observations

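Glycerolipid assembly joins fatty acids to glycerol, and 1 of its 10 genes rose and 2 fell (median 0.15 in log2 fold change). That is 10% higher and 20% lower, against 16.5% and 14.5% over all tested genes. GPAM, the mitochondrial acyltransferase of the first step, was at 38.8 and 24.4 CPM in libraries 1 and 2 labelled KMT2D shRNA against 7.81 CPM in the control. Both lay above the control, though apart from each other, and GPAM rose by 2.02 log2 units (SE 0.28, adjusted p = 1.65e-07 in edgeR), or by 1.60 after length adjustment (adjusted p = 0.000171 in edgeR). PLIN2, the coat protein of lipid droplets, was at 72.1 and 72.9 CPM against 165 CPM and fell by 1.19 (SE 0.17, adjusted p = 2.72e-07 in edgeR), or by 1.00 after length adjustment (adjusted p = 6e-05 in edgeR). AGPAT2, which adds the next acyl chain, fell by 0.79, or by 0.50 after length adjustment (adjusted p = 0.0369 in edgeR), and was at -0.26 and did not pass with GC content removed as well (adjusted p = 0.283 in edgeR). GPAM and PLIN2 passed in that fit too (adjusted p = 0.021 and 0.00316 in edgeR). DGAT1, not called at first, fell by 0.50 after length adjustment (adjusted p = 0.0378 in edgeR). It did not pass with GC content removed as well (adjusted p = 0.1665 in edgeR).

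Among 12 tested genes of fatty acid oxidation the median log2 fold change was -0.018, 2 fell in edgeR and the others did not pass. That is 16.7% lower, against 14.5% over all tested genes. ACADVL, the dehydrogenase of very long chains, was at 202 and 224 CPM against 331 CPM and fell by 0.63 log2 units (SE 0.16, adjusted p = 0.00254 in edgeR). ACADS, the dehydrogenase of short chains, was at 9.37 and 14.2 CPM against 27.1 CPM and fell by 1.201 (SE 0.25, adjusted p = 0.000163 in edgeR). Both calls held after length adjustment (adjusted p = 0.0327 and 0.00537 in edgeR) and were lost with GC content removed as well (adjusted p = 0.0984 and 0.0728 in edgeR).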
